A study of Homo sapiens with 27 samples.

Results

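CDX1, CDX2, MSX1 and MSX2 are homeobox transcription factor genes, and were taken as every probe carrying 1 of these 4 symbols in the scanner table. Each gene had 1 probe, so the set held 4 of 47323 probes, and all 4 were among the 23933 probes detected on at least 2 arrays. They were followed on 27 bead arrays during differentiation of HuES6, an established line of human embryonic stem cells, towards heart muscle. Every culture sampled after day 0 had received 10 ng/ml of FGF2, 1 ng/ml of BMP4 and 1 µM of a CHIR compound, an activator of WNT signalling, over the first 24 hours. Insulin was present on day 0 and absent from day 1. In 1 arm IWP-2, an inhibitor of Porcupine, the enzyme that WNT proteins need for secretion, was then added. Time course 1 received it on days 2 and 3, and time course 2 on days 1 and 2. The other arm went without it. The arm without inhibitor held 16 arrays, 1 per time course on days 0, 1, 2, 3, 4, 5, 6 and 8. The IWP-2 arm held 11, 1 per time course on days 3, 4, 5, 6 and 8 and 1 of time course 2 on day 2. Day 0 is the undifferentiated line, shared as the starting point of both arms. The day 1 arrays and the day 2 array of time course 1 also name no arm in the labels, and are counted here as without inhibitor. The labels describe 1 cell line and do not say whether days of a course were separate cultures. In the fits by day the p-values rest on the spread between time courses 1 and 2, which may be technical in part. For the IWP-2 arm this spread also holds the different inhibitor days of the courses, so its 2 arrays per day are not replicates of 1 treatment.

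CDX genes code for caudal-type factors that set posterior identity in the vertebrate embryo, act directly on HOX genes and are induced by WNT signalling in the primitive streak and tailbud. CDX2 is also a factor of the trophectoderm, and CDX1 and CDX2 of the intestinal epithelium. MSX1 and MSX2 code for muscle segment type factors that respond to BMP and WNT signals in lateral and limb mesenchyme, neural crest and dorsal neural tube. WNT signalling promotes early mesoderm and later restrains cardiac specification.

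Promoter sequences (RefSeq, GRCh38.p14) were at hand for 3 of the 4 genes and not for CDX1. They are shown because these genes moved together on the first day. CDX2 lies on chromosome 13 (27960918 to 27969315, minus strand), MSX1 on chromosome 4 (4859665 to 4863936, plus strand) and MSX2 on chromosome 5 (174724582 to 174730896, plus strand). CDX1 lies on chromosome 5 (150166778 to 150184558). The lines give the 250 bases before each start, on the gene's strand, with motif matches in capitals.
CDX2, chr13:27969316-27969565: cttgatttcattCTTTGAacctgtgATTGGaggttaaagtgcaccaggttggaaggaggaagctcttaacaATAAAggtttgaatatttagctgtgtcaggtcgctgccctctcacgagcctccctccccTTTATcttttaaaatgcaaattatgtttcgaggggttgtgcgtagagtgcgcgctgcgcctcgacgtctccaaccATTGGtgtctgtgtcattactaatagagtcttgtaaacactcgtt
MSX1, chr4:4859415-4859664: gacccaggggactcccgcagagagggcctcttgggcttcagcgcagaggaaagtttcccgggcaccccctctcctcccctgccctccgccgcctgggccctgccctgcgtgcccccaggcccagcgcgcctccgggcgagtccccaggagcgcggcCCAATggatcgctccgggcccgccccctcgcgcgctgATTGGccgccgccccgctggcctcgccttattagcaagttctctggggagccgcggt
MSX2, chr5:174724332-174724581: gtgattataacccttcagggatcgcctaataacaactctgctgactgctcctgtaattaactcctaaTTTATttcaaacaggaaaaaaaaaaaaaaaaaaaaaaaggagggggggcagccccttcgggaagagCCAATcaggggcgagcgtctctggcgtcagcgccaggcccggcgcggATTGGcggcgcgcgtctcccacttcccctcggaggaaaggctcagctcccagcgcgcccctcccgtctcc
Motifs searched on both strands were CTTTGA, the core bound by TCF and LEF factors, and TTTAT, a core of caudal factors. Others were the promoter element CCAAT, the SMAD-bound letters GGCGCC and the box spelled TATAAA. A reverse TATAAA can overlap TTTAT, and none of the 3 windows held TATAAA or GGCGCC. The CDX2 window held 1 CTTTGA at -238 to -233 from the start, 2 TTTAT and 2 CCAAT. MSX1 held 2 CCAAT and no TTTAT, and MSX2 held 2 CCAAT and 1 TTTAT. Among 35116 such windows in the table, CTTTGA was in 11.2%, TTTAT in 32.7%, CCAAT in 32.0%, GGCGCC in 16.4% and TATAAA in 10.7%. CCAAT was thus the 1 motif found before all 3 starts, and the matches are a description of letters only.

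Between 16424 and 19784 probes were detected per array at a detection p-value below 0.01, and the number of arrays limits the precision. Mean signals ran from 293.1 to 349.5 except for 225.2 on the IWP-2 array of day 8 in time course 2, and results that use this dim array are given without it where they differ. The lowest detected value lay between 4.72 and 5.13 on the normalized log2 scale, which serves as the background below. Stem cell markers checked the labels, with 7 of 7 detected on both day 0 arrays. Of 9 cardiomyocyte markers, 9 were detected on each IWP-2 array from day 5 and between 4 and 6 on the arrays without inhibitor from that day.

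Values below are normalized log2 intensities, with time course 1 first and time course 2 second. CDX1 lay at 4.21 and 4.37 on day 0, not above background. On day 1 it lay at 8.94 and 9.33, on day 2 at 8.45 and 8.70, and on day 3 at 9.37 and 9.75, its highest level. It then lay at 7.88 and 7.96 on day 4, 6.05 and 6.32 on day 5, 5.87 and 5.88 on day 6, and 4.81 and 5.20 on day 8. CDX1 was thus high for 3 days and close to background by day 8, when 1 of 2 arrays detected it. In the IWP-2 arm it lay at 4.42 on day 2 of time course 2, at 5.53 and 4.37 on day 3, and between 4.21 and 4.58 on the 8 later arrays. The day 3 array of time course 1, 1 day after its first dose, was the 1 of 11 IWP-2 arrays that detected it.

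CDX2 lay at 4.58 and 4.46 on day 0, not above background, and at 8.87 and 7.62 on day 1. It lay at 9.72 and 9.79 on day 2, 9.88 and 9.93 on day 3 and 9.96 and 10.42 on day 4. CDX2 thus kept its highest level 1 day longer than CDX1. It lay at 8.35 and 8.99 on day 5, 7.14 and 8.17 on day 6 and 7.62 and 6.92 on day 8, still detected on both arrays. With IWP-2 it lay at 5.18 on day 2 of time course 2, at 6.00 and 4.32 on day 3, at 4.86 and 4.48 on day 4 and between 4.31 and 4.71 on the arrays of days 5 to 8. Detection with IWP-2 was limited to 2 of 11 arrays, the first of each course.

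MSX1 was already detected in undifferentiated cells, at 5.37 and 6.30. It lay at 10.09 and 9.59 on day 1, 11.78 and 11.51 on day 2 and 12.61 and 12.54 on day 3. From day 4 to day 8 it stayed between 12.15 and 13.14, near the top of the scale. In scanner units the same probe went from 119.0 (time course 1) and 152.4 (time course 2) on day 0 to 7386 and 8566 respectively on day 6. With IWP-2 it lay at 8.56 on day 2 of time course 2, and from day 3 to day 8 between 7.45 and 9.95. All 11 IWP-2 arrays detected MSX1, and all lay below all arrays without inhibitor from day 2 on.

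MSX2 lay at 4.49 and 4.71 on day 0, not above background. It lay at 7.11 and 6.41 on day 1 and at 5.96 and 6.41 on day 2, so the first days were low. On day 3 it lay at 8.48 and 8.82, on day 4 at 9.27 and 9.01, and from day 5 to day 8 between 8.08 and 8.44. MSX2 was thus highest on day 4, with no overlap between its arrays and those of any other day. With IWP-2 it lay at 5.14 on day 2 of time course 2, at 6.59 and 6.80 on day 3 and at 6.94 and 7.06 on day 4. Later the 2 courses parted, with 6.52 and 7.60 on day 5, 5.83 and 7.75 on day 6 and 7.14 and 7.70 on day 8. All 11 IWP-2 arrays detected MSX2, so its level with the inhibitor was reduced and not at background.

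**Figure D1:**
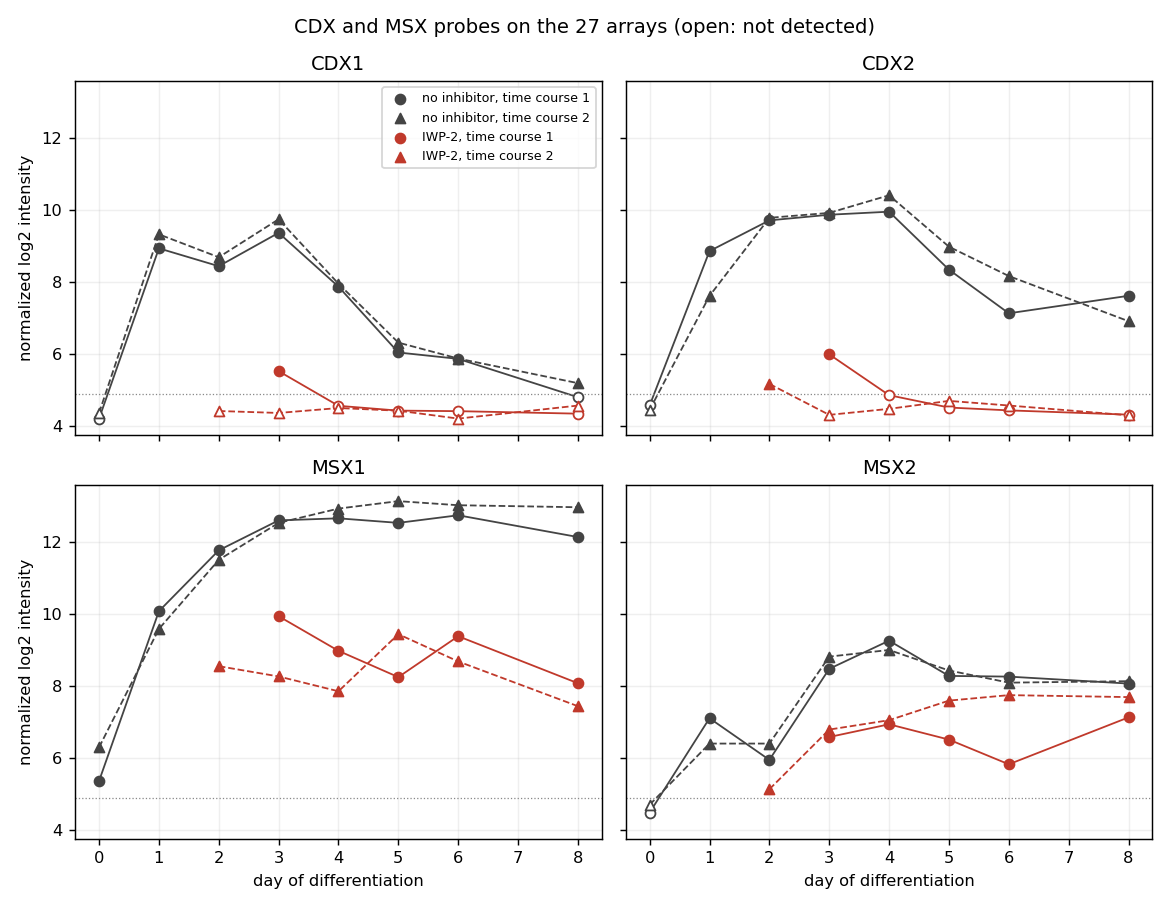
Normalized log2 intensity (vertical) against day (horizontal) for each gene, 1 point per array, grey without inhibitor and red with IWP-2, circles and solid lines for time course 1, triangles and dashed lines for time course 2. Open points were not detected and the dotted line is the median over arrays of the lowest detected value. CDX1 and CDX2 lie near that line with IWP-2, while MSX1 and MSX2 stay above it.

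Ordered by their mean, the 14 conditions (day and arm) form 13 neighbouring pairs. Arrays of neighbours overlapped in 5 of 13 pairs for CDX1, 8 for CDX2, 9 for MSX1 and 6 for MSX2. For MSX1 the top of the order, days 4, 5 and 6 without inhibitor, could not be told apart by their arrays.

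The first day of induction raised all 4 genes. Against day 0, the day 1 level of CDX1 was at least 18.2-fold higher (adjusted p = 1.46e-08, 2 arrays against 2), that of CDX2 at least 9.81-fold (adjusted p = 0.00011) and that of MSX2 at least 3.51-fold (adjusted p = 0.00606). These 3 are lower bounds, computed against the lowest detected value because day 0 was not above background. They hold for the group means on the background-corrected scale and include no sampling error. Over the 10 alternatives the fitted log2 rise was as low as 2.63 for CDX1, 1.83 for CDX2 and 0.81 for MSX2. MSX1 rose by 4.00 ± 0.52 (SE) on the log2 scale, 16.0-fold, with adjusted p = 0.000216. All 4 members passed against 2.4% of all probes tested in either direction and 0.923% called higher. The MSX2 call was lost without either array of time course 1 (adjusted p = 0.0613 and 0.121), and CDX1, CDX2 and MSX1 kept theirs without any 1 of these 4 arrays.

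From day 1 to day 2, 2 of 4 members rose, against 9.03% of all probes called. CDX2 rose by 1.51 ± 0.46 (adjusted p = 0.0471) and MSX1 by 1.80 ± 0.52 (adjusted p = 0.0379). Both calls were lost without the time course block, at adjusted p of 0.0721 and 0.0556. Leaving out 1 of the arrays compared ended the CDX2 call for 3 of the 4 arrays (adjusted p between 0.145 and 0.346) and the MSX1 call for all 4 (0.128 to 0.183). CDX1 differed by -0.57 ± 0.27 and MSX2 by -0.58 ± 0.40, neither past the test.

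Between day 2 and day 4, 1 of 4 members passed, against 15.2% of probes. This was MSX2, which rose by 2.96 ± 0.40, 7.76-fold, by 3.31 and 2.60 in the 2 courses (adjusted p = 6.79e-05). MSX1 differed by 1.16 ± 0.52, CDX2 by 0.43 ± 0.46 and CDX1 by -0.65 ± 0.27.

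After day 4 both caudal genes fell. From day 4 to day 8 without inhibitor CDX1 fell by 2.92 ± 0.27 (adjusted p = 3.7e-06) and CDX2 fell by 2.92 ± 0.46 (adjusted p = 0.000665), 7.54-fold and 7.55-fold. MSX1 differed by -0.24 ± 0.52, with a 95% interval from -1.34 to 0.86, and MSX2 by -1.03 ± 0.40 (adjusted p = 0.138). So 2 of 4 members were called, against 7.44% of probes.

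Over the whole course without inhibitor, day 8 against day 0, all 4 members were higher, where 37% of probes were called in either direction. MSX1 rose by 6.72 ± 0.52, 105.6-fold (adjusted p = 4.36e-08). MSX2 was at least 8.94-fold higher (adjusted p = 3.46e-06) and CDX2 at least 5.00-fold (adjusted p = 0.000142). CDX1 was at least 1.04-fold higher with adjusted p = 0.0471, a call lost without any 1 of the 4 arrays compared and without the block (adjusted p = 0.0602). In all, this CDX1 call was lost in 6 of 10 alternatives and in 22 of 27 runs that left out 1 array.

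With IWP-2, day 8 still differed from day 0 for both MSX genes, 2 of 4 members against 38.6% of probes. MSX1 was higher by 1.93 ± 0.52 (adjusted p = 0.00675), by 2.71 and 1.14 in the 2 courses, and lost the call without the day 0 or the day 8 array of time course 1 (adjusted p = 0.103 and 0.0709). MSX2 was at least 5.54-fold higher (adjusted p = 2.98e-05). CDX1 and CDX2 were not above background on either day. Between day 4 and day 8 with IWP-2 none of the 4 members passed, against 20.6% of probes, and MSX2 differed by 0.42 ± 0.40.

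The 2 arms were set side by side on the same day of the same course. This compares cultures with and without IWP-2, and a requirement for WNT secretion was not tested separately. Each of the 4 genes was lower with IWP-2 in 11 of 11 such pairs. The differences ran from -2.66 to -5.53 for MSX1 and from -0.35 to -2.44 for MSX2. CDX1 was not above background on 10 of the 11 IWP-2 arrays and CDX2 on 9, so the pairs give no exact size for them. Bulk RNA cannot tell fewer cells that carry a transcript from less transcript per cell.

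On day 3, all 4 members passed, against 0.869% of all probes. CDX1 differed by -4.61 ± 0.27 (adjusted p = 9.83e-08) and CDX2 by -4.74 ± 0.46 (adjusted p = 2.62e-05), each detected on 1 of the 2 IWP-2 arrays. MSX1 fell by 3.46 ± 0.52 (adjusted p = 0.00207), and the call was lost without the IWP-2 array of time course 2 (-2.59, adjusted p = 0.0728). MSX2 fell by 1.96 ± 0.40 (adjusted p = 0.0222), and lost the call without any 1 of its 4 arrays and without the block (adjusted p = 0.0577). The per course differences of MSX2, -1.89 and -2.03, lay close together. Those of CDX1 (-3.84 and -5.38), CDX2 (-3.88 and -5.61) and MSX1 (-2.66 and -4.27) lay further apart, wider in time course 2.

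On day 4, all 4 members again passed, against 2.54% of probes. CDX2 was at least 37.7-fold lower and CDX1 at least 7.83-fold lower (adjusted p = 1.09e-05 for both). These bounds hold on the background-corrected scale, and with no background correction the fitted differences were -3.44 for CDX2 and -1.55 for CDX1, with the same calls. MSX1 fell by 4.38 ± 0.52, 20.8-fold (adjusted p = 0.000183). MSX2 fell by 2.14 ± 0.40, 4.40-fold (adjusted p = 0.00611), and lost the call without the IWP-2 array of time course 2 (adjusted p = 0.107) or the other arm's array of time course 1 (adjusted p = 0.0953).

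On day 5, 3 of 4 members passed, against 8.14% of probes. CDX2 was at least 13.5-fold lower (adjusted p = 3.15e-05) and CDX1 at least 2.42-fold lower (adjusted p = 0.000559). MSX1 was 15.9-fold lower (-3.99 ± 0.52, adjusted p = 0.000127). MSX2 differed by -1.30 ± 0.40, with adjusted p = 0.0551 (-0.88 and adjusted p = 0.0387 with no background correction).

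On day 6, all 4 passed, against 12.6% of probes. CDX2 was at least 7.12-fold lower (adjusted p = 0.000235) and CDX1 at least 2.08-fold lower (adjusted p = 0.00108). MSX1 was 14.4-fold lower (-3.85 ± 0.52, adjusted p = 0.000126). MSX2 fell by 1.39 ± 0.40 (adjusted p = 0.0297), but by 2.44 in time course 1 and 0.35 in time course 2. Without the IWP-2 array of time course 1 it differed by -0.52 (adjusted p = 0.414), and the call also ended without either array of the other arm (adjusted p = 0.214 and 0.0675) or without the block (0.0663).

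On day 8, 2 of 4 passed, against 21.3% of probes. MSX1 fell by 4.79 ± 0.52 (adjusted p = 6.68e-06), and CDX2 was at least 5.00-fold lower (adjusted p = 0.000182). The MSX1 value was the widest of its 5 fitted daily differences, with -5.53 in time course 2, where the dim array was used. In time course 1 the MSX1 difference was wider on day 5 (-4.28) than on day 8 (-4.06). CDX1, not above background with IWP-2 and detected on 1 of 2 arrays without, did not pass (adjusted p = 0.178). MSX2 differed by -0.69 ± 0.40 (adjusted p = 0.255), and by -1.12 with median scaling, where it passed (adjusted p = 0.0329). Without the dim array the differences were -4.48 for MSX1 and -0.83 for MSX2, and the calls of all 4 members were the same.

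**Figure D2:**
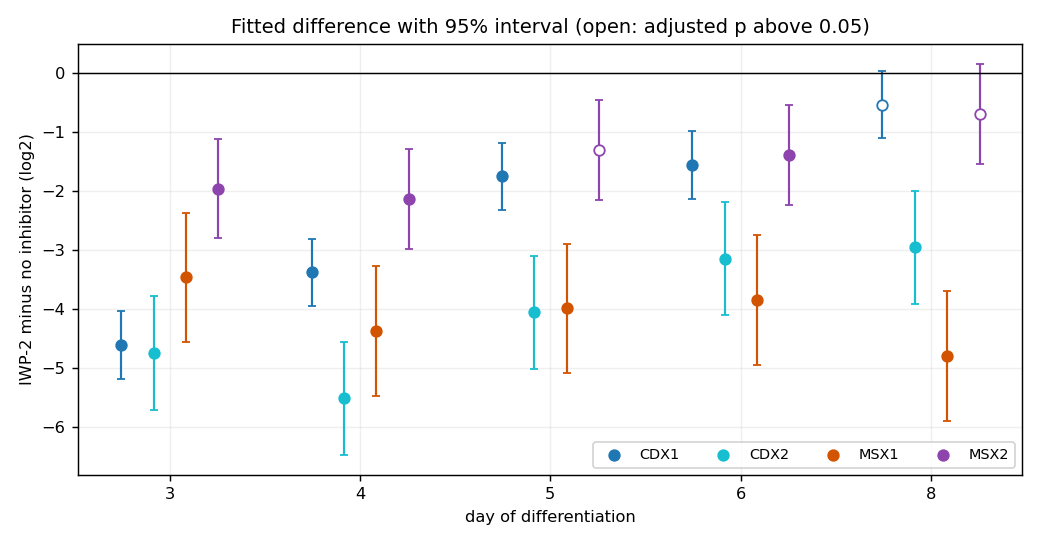
Fitted difference between the arms (vertical, log2, IWP-2 minus no inhibitor) on each day sampled in both courses (horizontal), with 95% intervals from limma, 2 arrays against 2. Filled points passed an adjusted p of 0.05. CDX1 and CDX2 were not above background with IWP-2 from day 4, so their points from then on rest on a background level, while MSX1 stays between -3.46 and -4.79.

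The first inhibitor day was taken apart by counting days from the first dose, which fell on day 2 in time course 1 and day 1 in time course 2. After 1 day all 4 members were lower, against 0.43% of probes, with CDX2 having the lowest difference of all 23933 probes (-4.21 ± 0.38, adjusted p = 3.68e-05). CDX1, detected on 1 of the 2 IWP-2 arrays, differed by -3.92 ± 0.37 (adjusted p = 5.35e-05), and MSX1 fell by 2.79 ± 0.27 (adjusted p = 5.93e-05), rank 7 from the lowest. MSX2 fell by 1.57 ± 0.28 (adjusted p = 0.0154), rank 52, and lost the call without either IWP-2 array (-1.11 with adjusted p = 0.692, and -2.02 with adjusted p = 0.053).

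The levels on these days were also set against the day before. That day was the day of the first dose, with an array that had no inhibitor named. The labels do not say whether it was taken before the dose. Against it, CDX1 went from 8.45 to 5.53 in time course 1 and from 9.33 to 4.42 in time course 2. These were changes of -2.92 and -4.91 from 1 sampled day to the next. CDX2 changed by -3.72 and -2.44, and MSX1 by -1.83 and -1.03. Without inhibitor CDX1 changed by 0.93 and -0.64 over the same days, so in time course 2 it was lower than the day before in both arms. Without inhibitor MSX1 changed by 0.83 and 1.92 and CDX2 by 0.16 and 2.17. MSX2 went up by 0.63 in time course 1 with IWP-2, against 2.53 without, and changed by -1.27 in time course 2, against 0 without. For MSX2 in time course 1 the gap thus came from a smaller rise. These single-array values carry no test.

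After 2 days all 4 members were lower, against 1.8% of probes. CDX2 was at least 31.6-fold lower (adjusted p = 1.13e-06) and CDX1 at least 14.4-fold (adjusted p = 1.92e-05). MSX1 fell by 4.07 ± 0.27 (adjusted p = 8.37e-07) and MSX2 fell by 1.94 ± 0.28 (adjusted p = 0.00144), which lost its call without the IWP-2 array of time course 1 (adjusted p = 0.0585).

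**Figure D3:**
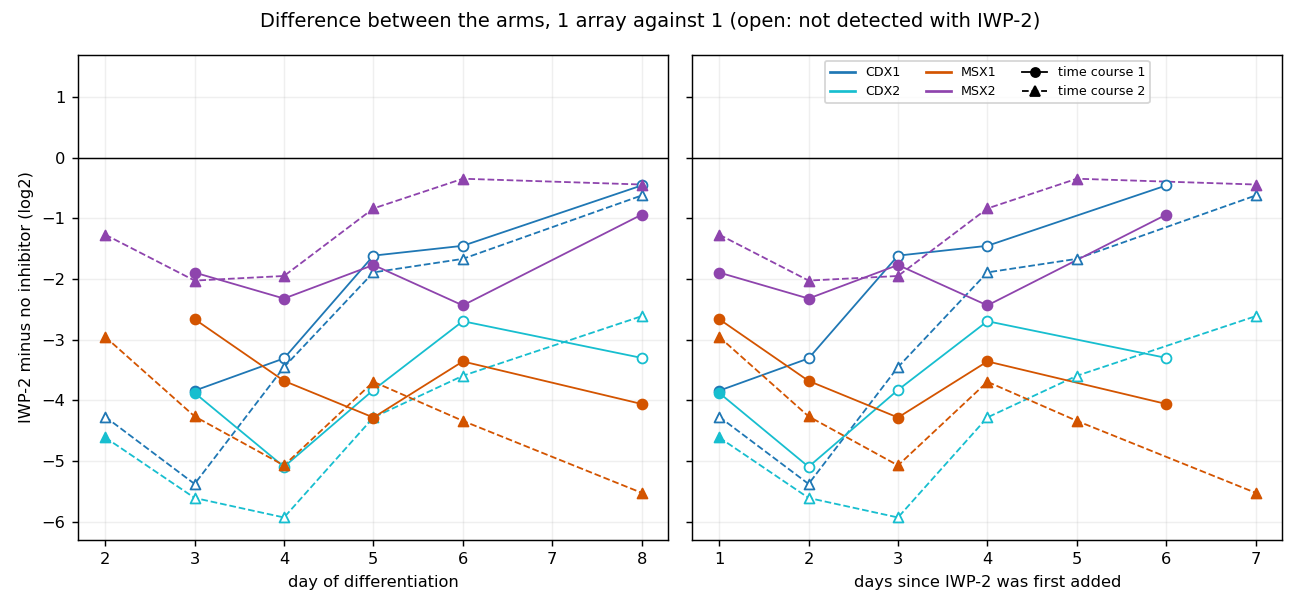
Difference between the arms (vertical, log2) for each pair of single arrays, against day (left) and days since the first dose (right), coloured by gene, circles for time course 1 and triangles for time course 2. Open points were not detected with IWP-2. All points lie below 0, and MSX2 of the 2 courses parts from day 5.

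Averaged over days 3 and 4, with 4 arrays against 4, all 4 members were lower with IWP-2, against 3.57% of probes called and 1.83% called lower. The 4 arrays of each arm came from time courses 1 and 2. The fit counts the days of a course as independent, which the labels do not state, so the p-values may be too small. CDX1 differed by -4.00 ± 0.19 (adjusted p = 3.62e-09), the lowest p of all probes, CDX2 by -5.13 ± 0.32 (adjusted p = 9.92e-08), MSX1 by -3.92 ± 0.37 (adjusted p = 7.61e-06) and MSX2 by -2.05 ± 0.28 (adjusted p = 0.000336). IWP-2 arrays that detected CDX1 or CDX2 were 1 of 4 for each. Over all probes, 48.8% of the calls were higher, and 68.8% with median scaling of the arrays.

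Averaged over days 6 and 8, all 4 were still lower, against 30.4% of probes called and 15.4% called lower. Here too the days of a course were counted as independent. MSX1 fell by 4.32 ± 0.37 (adjusted p = 2.11e-07), rank 29 from the lowest. CDX2 was at least 5.97-fold lower (adjusted p = 2.07e-06) and CDX1 at least 1.47-fold (adjusted p = 0.00045). MSX2 fell by 1.04 ± 0.28 (adjusted p = 0.00956), by 1.69 and 0.39 in the 2 courses, and without the IWP-2 array of day 6 in time course 1 it differed by -0.60 (adjusted p = 0.0567). Of all calls 49.4% were higher, and 28.6% with median scaling.

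The difference between these windows was itself tested, and 2 of 4 members passed, against 14.9% of probes. These were CDX1 (adjusted p = 5.23e-06) and CDX2 (adjusted p = 0.0056). With IWP-2 both were detected on 1 of 4 arrays early and 0 of 4 late, so the size of the change has no measured IWP-2 end. The level without inhibitor went from 8.74 to 5.44 for CDX1 and from 10.04 to 7.46 for CDX2. For MSX1 the windows differed by -0.40 ± 0.52 (95% interval -1.50 to 0.70, adjusted p = 0.666) and for MSX2 by 1.01 ± 0.40 (adjusted p = 0.105). Without the IWP-2 array of day 6 in time course 1 the MSX2 value was 1.44 (adjusted p = 0.00373).

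The timing of the inhibitor was compared through the effect of time course 2 minus that of time course 1. The window and the time course cannot be told apart, since each course had 1 window. On days 3 and 4 none of the 4 members passed, against 0.0251% of probes, with MSX1 at -1.66 ± 0.43 (unadjusted p = 0.00154 and adjusted p = 0.368 in limma) and CDX1 at -0.85 ± 0.23 (0.00193 and 0.413). CDX2 stood at -1.05 ± 0.45 (adjusted p = 0.804), so 3 members had an unadjusted p below 0.05, where 5.85% of probes did. Negative values mean a wider difference in the course dosed earlier. With IWP-2 CDX1 and CDX2 were each detected on 1 of these 4 arrays, day 3 of time course 1, so their values compare a measured level with background. CDX1 passed without either IWP-2 array of day 4 (-1.40, adjusted p = 0.046). MSX2 differed by 0.15 ± 0.31.

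On days 5, 6 and 8, 1 of 4 passed, against 7.26% of probes. This was MSX2, whose effect was 1.18 ± 0.26 less negative in time course 2 (adjusted p = 0.0136). Its per day effects were -1.77 and -0.84 on day 5, -2.44 and -0.35 on day 6 and -0.94 and -0.44 on day 8. The call was lost without either IWP-2 array of day 6 (0.81, adjusted p = 0.133) and under median scaling of the arrays (0.92, adjusted p = 0.0585). It was 1.49 without the dim array (adjusted p = 0.00299). MSX1 differed by -0.31 ± 0.37, and CDX1 and CDX2 were not above background on any of these 6 IWP-2 arrays.

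The wider pathways were described over lists of genes, by counts against the same 3.57% (days 3 and 4) and 30.4% (days 6 and 8) of probes. The median over all probes was 0.02 and -0.01 in the 2 windows. Each gene was taken from its brightest detected probe.

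CDX4, the third caudal gene, was at least 1.71-fold lower with IWP-2 on days 3 and 4 (adjusted p = 0.0103), and the call was lost without the block. It was detected on 9 of 27 arrays, at up to 6.71 on day 3 of time course 2, against 4.82 on day 3 of time course 1. Canonical WNT targets other than the members were lower in 10 of 15 measured (8 without the block) and higher in 0 (median -1.46). Among them NKD1, a feedback inhibitor of WNT signalling, fell by 2.49 ± 0.28 (adjusted p = 4.84e-05). TBXT (brachyury), which the tailbud list also holds, fell by 2.40 ± 0.24 and was detected on 1 of 4 IWP-2 arrays. A dimmer TBXT probe differed by -0.75 and also passed. DKK1, a secreted WNT antagonist, fell by 2.45 ± 0.50 on its brightest probe, and its other detected probe did not pass (-0.41). On days 6 and 8, 4 of the 15 were higher and 0 lower. DKK1 was higher by 2.53 ± 0.50 on its brightest probe, and by 0.50 on the other, which did not pass. These targets were not tested against the members. With median scaling 1 of the 15 was lower then.

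Tailbud and posterior mesoderm genes were lower in 4 of 16 on days 3 and 4, higher in 0. SP5, a direct WNT target, fell by 1.46 ± 0.25 and SP8, its relative, fell by 1.60 ± 0.19. With median scaling 1 of 16 was higher. On days 6 and 8, 3 were higher and 1 lower (2 and 0 without the block), FGF8, a tailbud and heart field ligand, at least 2.89-fold higher. Of 5 WNT ligand genes of the streak, WNT5B fell by 2.39 ± 0.24 and WNT3A fell by 2.18 ± 0.26 on days 3 and 4, and the other 3 did not pass.

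HOX genes, which CDX factors regulate in the mouse, were taken by paralog group, and 0 passed as higher in either window. Of paralogs 5 to 9, 4 of 7 measured were lower on days 3 and 4 (3 without the block) and 6 of 7 on days 6 and 8. Their medians were -2.003 and -3.83. HOXB8 was at least 9.75-fold lower on days 3 and 4 and differed by -6.52 ± 0.53 on days 6 and 8. HOXC8 was at least 28.6-fold lower on days 6 and 8. HOXB6 fell by 3.90 ± 0.42 on days 3 and 4 on its brightest probe, and its other probe differed by -0.005. Of paralogs 1 to 4, 3 of 7 were lower early and 6 of 7 late (4 without the block or without the dim array), with HOXB3 at -1.28 ± 0.20 and -1.53 ± 0.20. Another HOXB3 probe differed by -0.83 early, which did not pass, and by -0.88 late, which did. Of paralogs 10 to 13 only 2 were detected, of which 0 were lower early and 1 late (0 without the block).

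BMP ligands and receptors went the other way in part, with 3 of 10 higher and 0 lower on days 3 and 4 (1 higher without the block, and 1 higher and 1 lower without the dim array). BMP2 rose by 2.00 ± 0.35 and BMP7 by 1.24 ± 0.33. On days 6 and 8, 4 were higher, BMP2 by 4.01 ± 0.35, and 2 lower (3 and 4 with median scaling). BMP4 fell by 1.82 ± 0.28. BMP antagonists were higher in 3 of 7 early, BMPER by 1.98 ± 0.26, and higher in 3 and lower in 2 late (2 and 1 without the dim array). BMP response genes were mixed early, 3 higher and 3 lower of 12 (1 higher without the block). GATA2 rose by 1.86 ± 0.22, while TBX3 fell by 2.40 ± 0.25 on its brightest probe and differed by -0.60 on another, which did not pass. Late, 5 were higher and 1 lower, with SMAD6, a feedback inhibitor of BMP signalling, up by 1.37 ± 0.16 and ID3 up by 0.90 ± 0.23.

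Lateral plate and limb type mesenchyme genes were lower in 2 of 12 early, PRRX1 at least 36.9-fold and FOXF1 by 2.71 ± 0.35. The PRRX1 bound is that of its brightest probe, and its other probe was at least 2.745-fold lower and also passed. Late, 6 were lower and 1 higher, PITX1 at -7.25 ± 0.61 and SNAI2 at -3.62 ± 0.71. Of 6 measured relatives of MSX in the NK-like homeobox class, 0 passed early (1 higher with median scaling or without the dim array) and 1 was lower late, VENTX by 0.74 ± 0.24 (0 without the dim array).

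**Figure D4:**
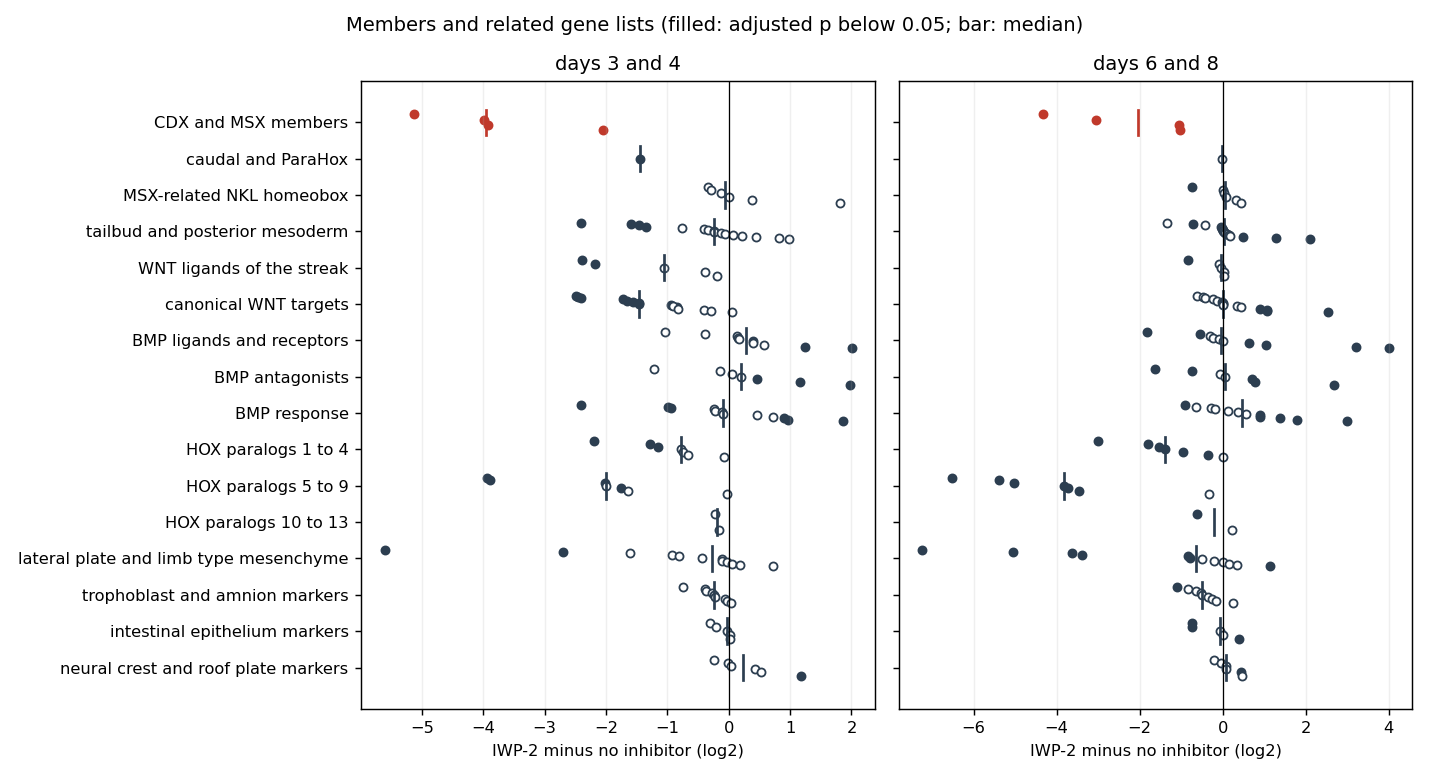
Difference between the arms (horizontal, log2, IWP-2 minus no inhibitor) of the 4 members (top, red) and of the genes on each list (rows), averaged over days 3 and 4 (left) and days 6 and 8 (right). Filled points passed an adjusted p of 0.05 and the bar is the median. The members lie at -2.05 to -5.13 on the left, and HOX paralogs 5 to 9 have their median at -2.003 on the left and -3.83 on the right.

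Markers of other tissues that express these factors were measured beside them. Of 9 intestinal markers between 0 and 3 were detected per array, at a mean level of 4.36 to 4.64, and LGALS4, MUC2, KRT20 and CDHR5 were detected on 0 arrays. GPA33 was detected on 8 arrays and CDH17 on 4, all without inhibitor, and FABP2 on 2, both with IWP-2. Intestinal markers passed in 0 of 5 tested early and were higher in 1 and lower in 2 late (0 and 1 without the dim array, 0 and 2 without the block), GPA33 at least 1.32-fold lower. Of 11 trophoblast and amnion markers 3 to 9 were detected per array, at a mean level of 5.12 to 6.64, highest on day 6 without inhibitor in 1 course. ELF5 and PSG1 were detected on 0 arrays, TFAP2A on 26 and GATA3 on 22. VTCN1 had a mean of 4.17 on day 0, 8.45 on day 8 without inhibitor and 8.00 with IWP-2. For GABRP these means were 5.82, 8.64 and 7.81, while TFAP2C went down, with 8.00, 6.26 and 5.06. Between the arms 0 of 9 tested passed early and 1, TFAP2C, was lower late (4 with median scaling, 0 without the dim array or the block). Of 11 neural crest and roof plate markers 1 to 5 were detected per array, at a mean of 4.50 to 5.17, with PAX3, TFAP2B, ZIC1, LMX1A and WNT1 on 0 arrays. ERBB3 was detected on 27 arrays and SOX9 on 23. Early, 1 of 6 tested was higher, PAX7 by at least 1.75-fold (2 with median scaling). Late 1 was higher, NGFR (0 with median scaling or without the block). Cardiomyocyte markers had a mean level of 10.73 to 10.83 on day 8 with IWP-2 and of 6.59 to 6.74 without, with 8 of 9 higher and 1 lower on days 6 and 8. Taken by day, 0 of the 9 passed on day 3, 3 were higher on day 4 and 7 on day 5, and 0 passed with days 3 and 4 averaged. The part of cell composition in the members' differences was not tested.

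Likeness of profile was measured by Pearson correlation over the 27 arrays among 13571 other genes, which share the same arrays and time courses. Nearest to CDX1 were NKD1 (r = 0.91), CDX2 (0.88), SP5 (0.85), WNT3A (0.81) and AAAS (0.80). Nearest to CDX2 were CDX1, NKD1 (0.88), MSX1 (0.84), OAF (0.83) and LY6G6D (0.83). Nearest to MSX1 were FOXF1 (0.88), OAF (0.87), IFI35 (0.84), SLIT2 (0.84) and CDX2. MSX2 had other neighbours, HYI (0.85), TNFAIP3 (0.85), COX19 (0.83), BAG3 (0.83) and RDH10 (0.81). Least like were FBXW11 (-0.77) and LOC646214 (-0.73) for CDX1, KDM4C (-0.80) and SOCS5 (-0.79) for CDX2, GAL3ST3 (-0.88) and SLC16A10 (-0.87) for MSX1, and MTMR12 (-0.86) and GPC4 (-0.82) for MSX2. Of each gene's 5 nearest, between 2 and 5 stayed among the 5 with Spearman correlation or median scaling.

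Among the members CDX1 and CDX2 were close (r = 0.88), MSX1 and MSX2 less so (0.75) and CDX1 and MSX2 least (0.35). Within the 16 arrays without inhibitor the MSX pair had r = 0.89 and the CDX pair 0.78. Within the 11 IWP-2 arrays the MSX pair had r = -0.24, and the CDX pair lay at background on most.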

How the data were processed

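The 27 Illumina bead arrays were hybridised with amplified, biotin-labelled total RNA of HuES6 cells, per the labels' protocols. For each probe and array the authors' deposited scanner table gives a signal intensity and a detection p-value, per the file headers. The submitters' processing notes name GenomeStudio, with no version. A second deposited table of the authors' processed intensity values served as an alternative, as log2 of the value plus 16. How it was made is not given in the sources used. Another series also holds 2 of the arrays, per the labels: day 3 and day 6 with IWP-2 in time course 1.

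Of 47323 probes 30113 had 1 gene symbol in the annotation given, 8 had several and 17202 were not listed there. Intensities were corrected with normexp, its background taken from the detection p-values, with an offset of 16, quantile normalized and taken to log2 with limma 3.58.1 under R 4.3.3. Probes had to be detected (p-value below 0.01) on 2 arrays or more, which left 23933. Models fitted to all 27 arrays (lmFit, eBayes) held a mean for each day within each arm, with time course as block. Benjamini-Hochberg adjustment ran over all 23933 probes, and the threshold was 0.05. The block follows the labels, which name each course's own control arm, and the time course difference of the 13 groups with 2 arrays correlated in 78 of 78 pairs of groups, with values of 0.137 to 0.785. Further fits counted days from the first IWP-2 dose, or let the effect differ between courses. A fold is a lower bound where no array of a group detected the probe. The brighter group's mean is set against a mean over the dim arrays. Each dim array gives its lowest detected value, or the probe's own value where higher. Every such bound, given as "at least", holds for group means on the background-corrected scale and includes no sampling error. Named genes were the members, up to 4 passing genes of largest difference per list, and the 5 most and 2 least correlated genes of each member. The 17 lists held 193 genes, 132 of them tested. Members and lists were chosen with earlier results of these data known. Promoter sequences and gene positions come from RefSeq tables of GRCh38.p14, and positions count back from -1 at the base before the start. The fits were tested on simulated data. A slide block was not run, because the files name no slide. TNNT2 is not analysed here. Alternatives were the block, background correction, scaling, filters, array weights, the variance model, the threshold and leaving out each array.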

Additional observations from a re-analysis of the deposited data

Results flagged for a closer look

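The gap between the arms differed between early and late days for both caudal genes, by a test of the difference itself. The fitted change from days 3 and 4 to days 6 and 8 was 2.95 on the log2 scale for CDX1 and 2.08 for CDX2. Neither gene was above background on the 4 late IWP-2 arrays, so these values have no measured IWP-2 end and move with the level without inhibitor.

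The late inhibitor effect on MSX2 differed between the 2 courses, by 1.18 on the log2 scale over days 5, 6 and 8, less negative in time course 2. The widest distance was on day 6, and time course and inhibitor window cannot be told apart.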

How the results depend on the processing

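Over 19 comparisons of 4 members, 10 alternatives reversed 1 value: the window difference of CDX2 on days 5, 6 and 8, near 0, was -0.015 with no background correction. Calls kept their side of the threshold in 76 of 76 results with detection on at least 4 arrays and with 1 probe per gene, 75 with the authors' processed values or array weights, 73 with median scaling and 66 with no background correction. The time course block follows the design, and without it (no replicate block) 63 of 68 results kept theirs. The 5 calls lost were CDX2 and MSX1 from day 1 to day 2, CDX1 from day 0 to day 8, and MSX2 on days 3 and 6. The number of members called from day 1 to day 2 went from 2 to 0 without the block, with no filter and at adjusted p below 0.01, and to 1 with median scaling, the authors' values or a robust variance trend. With no background correction it went from 1 to 2 between day 2 and day 4, and from 2 to 1 for IWP-2 on day 8 against day 0, and MSX2 lost its calls on day 1 (adjusted p = 0.114) and 1 day after the first dose (adjusted p = 0.106). The late window count went from 1 to 0 with median scaling and at adjusted p below 0.01. Leaving out 1 array at a time, where a lone array is assumed to vary like the other groups, gave 0 to 3 members called from day 1 to day 2, 1 to 2 between day 2 and day 4, 1 to 2 for IWP-2 on day 8 against day 0, 2 to 4 on day 3, 0 to 1 for the early window and 0 to 1 for the late window. The same runs turned the sign of values that had not passed: MSX1 from day 4 to day 8 ranged from -0.725 to 0.243, CDX1 with IWP-2 over those days from -0.167 to 0.017, MSX1 late minus early from -0.836 to 0.035, and the late window difference from -0.103 to 0.223 for CDX2 and -0.93 to 0.017 for MSX1. In all, 1965 of 2052 such results kept their side. Without the block the probes called on days 3 and 4 went from 854 to 501, with array weights to 1493, and in the late window array weights moved 1737 to 5495. The cause of these changes was not tested. Sizes of the CDX differences moved with the background correction: over the 10 alternatives day 4 ran from -1.55 to -3.49 for CDX1 and from -3.44 to -5.51 for CDX2, against -4.04 to -4.40 for MSX1, and the smallest CDX values were those with no background correction. That setting also added calls for CDX1 from day 1 to day 2 (-0.47, adjusted p = 0.022) and from day 2 to day 4 (-0.50, adjusted p = 0.0103), and for MSX2 from day 4 to day 8 (-0.83, adjusted p = 0.0494), on day 5 and between the early and late effects (0.80, adjusted p = 0.0391). With no filter MSX2 lost its calls on days 3 and 6 and 1 day after the first dose (adjusted p = 0.073, 0.0757 and 0.0672). CDX1 was not above background on 10 and CDX2 on 9 of 11 IWP-2 arrays, which leaves lower bounds for most of their falls.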
